A study of Mus musculus with 3 samples.

Results

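Cxxc5 and Cxxc4 encode 2 small CXXC zinc finger proteins, and the peaks described here are those of the Smad3 and JMJD3 lists that name either gene as the closest one or have their midpoint within 100 kb of its transcription start site (TSS). The rule gave 115 of 98086 Smad3 peaks and 59 of 63154 JMJD3 peaks. At Cxxc5 there were 99 Smad3 and 48 JMJD3 peaks, and at Cxxc4 16 and 11. The genes were chosen with earlier results from the same lists in view, so their counts and widths are a description and carry no test.

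The cells were neural stem cells of wild-type mouse embryos, taken from the cerebral cortex at E12.5 and grown on dishes with EGF (20 ng/ml) and FGF (10 ng/ml). Chromatin immunoprecipitation and sequencing (ChIP-seq) was done for Smad3, which takes signals of the TGF-beta receptors into the nucleus and binds DNA, and for JMJD3, a histone H3 lysine 27 demethylase, after TGFb at 5 ng/ml, which the series text gives as 30 minutes. There was 1 library per antibody and 1 of input DNA, all treated with TGFb, which leaves every value without a replicate error and without a comparison to untreated cells. The lists hold positions on mm9 and no height, enrichment or read number, so the depth behind a peak is unknown. The culture could be checked against its label only by peaks, which do not measure expression: 8 of 8 neural stem cell markers had a Smad3 peak within 1 kb of the TSS and 7 had a JMJD3 peak, Msi1 being the one without, against 3 (Gfap, Tubb3 and Map2) and 2 (Tubb3 and Map2) of 11 markers of neurons, glia and endothelium. Over all 20953 coding genes the shares were 55.0% and 43.3%. With a window of 5 kb, added after the data were seen, all 8 stem cell markers had both proteins, and 8 and 6 of the 11 others had Smad3 and JMJD3, against 60.1% and 48.0% of coding genes, so these counts do not separate the cell types at that distance.

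CXXC zinc fingers bind DNA at CpG sites that carry no methyl group. Cxxc5, also called Rinf, and Cxxc4, also called Idax, have this finger and little else of known structure, and both proteins bind Dishevelled, which relays Wnt signals from the Frizzled receptors, and dampen Wnt signalling through beta-catenin. Cxxc5 is known as a gene induced by BMP4 in cultured neural stem cells. Cxxc4 is the neighbour of Tet2, an enzyme that oxidises methylated cytosine and that lacks a CXXC finger of its own, and Cxxc4 is thought to descend from the finger that Tet2 lost.

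In the deposited annotation Cxxc4 (Entrez 319478, NM_001004367) spans chr3:133903111-133925125 on the plus strand of mm9, a length of 22.0 kb. The stretch shown here is the RefSeq sequence of the 250 bases before the start of Cxxc4, chr3:134236245-134236494 on the plus strand of GRCm38.p6, a later build than that of the peaks. It is shown because peaks of both lists lie over it, as described with the Cxxc4 starts. Capitals mark a match to GGCGC, a GC-rich element reported for the DNA-binding domain of Smad proteins, read on the opposite strand.
Cxxc4 promoter: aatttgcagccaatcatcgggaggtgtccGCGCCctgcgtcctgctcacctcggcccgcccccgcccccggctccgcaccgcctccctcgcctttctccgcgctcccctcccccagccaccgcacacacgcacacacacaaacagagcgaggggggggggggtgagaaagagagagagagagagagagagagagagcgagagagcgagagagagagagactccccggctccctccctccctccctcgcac

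In the deposited annotation Cxxc5 (Entrez 67393, NM_133687) spans chr18:35989471-36021342 on the plus strand of mm9, a length of 31.9 kb. Over the TSS named in the files, each the closest to some peak, the neighbourhood of Cxxc5 was among the most densely listed for both proteins. That of Cxxc4 was ordinary among them. Within 100 kb of the Cxxc5 start lay 99 Smad3 peaks, where the median over 17765 TSS named in the files was 14, and 0.0619% of them (11 TSS, Cxxc5 included) had at least as many. For JMJD3 the number was 48 against a median of 9, and 0.236% of TSS (42) had at least as many. Around Cxxc4 the same window held 12 Smad3 and 7 JMJD3 peaks, below both medians, and 58.6% and 63.9% of TSS had at least as many.

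**Figure D1:**
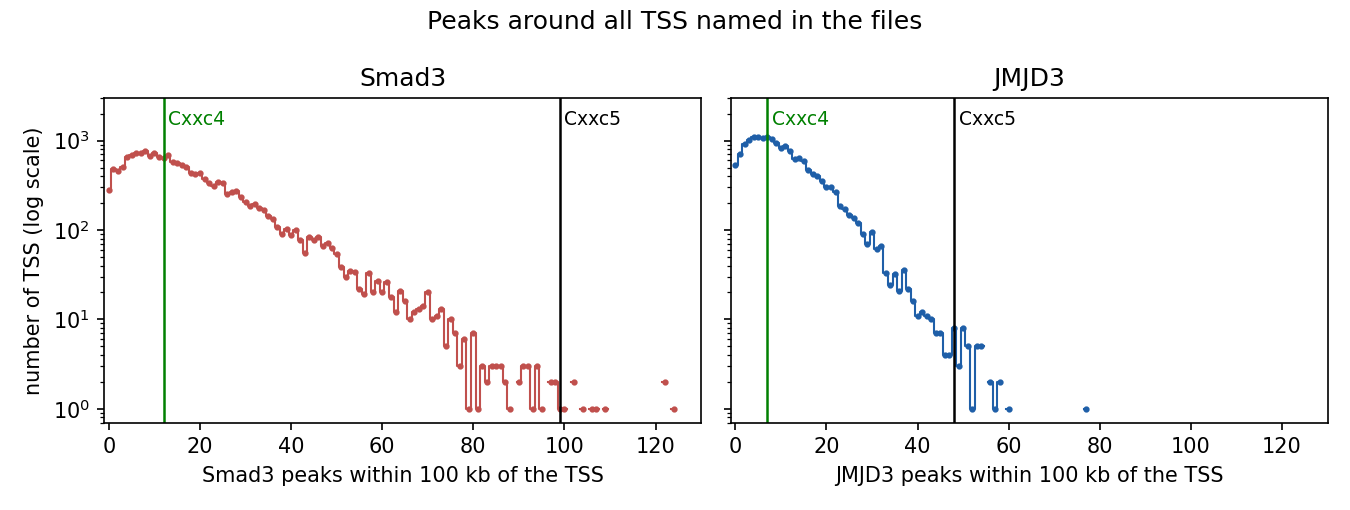
Number of TSS (vertical axis, log scale) by the number of Smad3 peaks (left) or JMJD3 peaks (right) with midpoint within 100 kb (horizontal axis), over the 17765 TSS named in the files. Each point is the number of TSS with that many peaks, and counts with no TSS are left blank. The black line marks Cxxc5 (99 and 48 peaks), far out in both tails, and the green line marks Cxxc4 (12 and 7), near the middle.

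The excess at Cxxc5 was also one of covered sequence and did not rest on the number of pieces into which a region was listed. Smad3 peaks covered 37959 bp, or 19.0%, of the window of 100 kb each side of the Cxxc5 start, and 0.135% of TSS had as much. JMJD3 peaks covered 26519 bp, or 13.3%, and 0.158% of TSS had as much. Around Cxxc4 Smad3 covered 3888 bp (1.94%) and JMJD3 3783 bp (1.89%), which 64.4% and 58.5% of TSS reached.

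Most peaks in the Cxxc5 window named Cxxc5 itself. Of the 99 Smad3 peaks 85 did so, and of the 48 JMJD3 peaks 42. Only 0.0791% of the 16428 genes named in either list were named by at least as many Smad3 peaks, and 0.195% by at least as many JMJD3 peaks, where the median gene with a peak had 3 in each list. The others named Tmem173, which encodes the innate immune adaptor STING (7 Smad3 and 2 JMJD3 peaks), Ube2d2, a ubiquitin-conjugating enzyme gene (3 and 3), Psd2 (3 Smad3 peaks) and 1700066B19Rik (1 and 1). At Cxxc4, 13 of 16 Smad3 and 9 of 11 JMJD3 peaks named the gene, which 11.4% and 11.6% of genes matched, and the rest named Mir1895, a microRNA gene inside Cxxc4.

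The body of Cxxc5 was more densely covered than the rest of its window taken as a whole. Smad3 peaks covered 57.1% of the 31872 bp from the gene's start to its end, JMJD3 peaks 41.9% and both together 39.4%. In the rest of the window the shares were 11.7%, 7.82% and 6.14%. Of the Smad3 peaks naming Cxxc5, 46 of 85 (54.1%) lay inside the gene more than 1 kb from the start and 23 (27.1%) past its end. Another 11 (12.9%) lay more than 5 kb upstream and 4 (4.71%) within 1 kb of the start. Over all Smad3 peaks, placed by their closest gene, these shares were 27.3%, 17.4%, 25.4% and 25.4%. For JMJD3 the gene body held 22 of 42 peaks (52.4%, against 26.6% of all JMJD3 peaks). The stretch past the gene end held 14 (33.3%, against 17.8%) and the promoter 1 (2.38%, against 25.2%). Gene length, which sets how much room lies inside a gene, was not allowed for.

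The Cxxc5 promoter carried a Smad3 region that ran far into the gene, while JMJD3 was listed there in 2 separate pieces. A region here joins peaks of 1 list that lie at most 10 bp apart. The Smad3 region was 4051 bp wide, from 580 bp upstream to 3470 bp downstream of the start, and joined 13 peaks. It stood against a median of 760 bp, and 0.0666% of the 12007 genes with a Smad3 promoter region (8 genes) had one at least as wide. The JMJD3 region at the start was 780 bp wide, from 260 bp upstream to 519 bp downstream, near the median of 860 bp, and 60.8% of 9380 genes had one at least as wide. A further JMJD3 region of 1350 bp lay from 1710 to 3059 bp downstream, so that the 4051 bp of Smad3 held 2121 bp of JMJD3 (52.4%), and the rest of the Smad3 region had none.

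The JMJD3 region at the Cxxc5 start was 0.193 times as wide as the Smad3 region, where the median over 9059 genes with both was 1.07 and 6 genes, Cxxc5 included, were at or below that value. With a window of 2.5 or 5 kb, which takes in the JMJD3 region of 1350 bp, the ratio was 0.333. Without joining, the order of the widths turned, since the widest single Smad3 peak within 1 kb of the start was 511 bp and the JMJD3 peak 780 bp, and with joining at 500 bp they were 4891 and 780 bp. At Cxxc4 the ratio of the region widths was 1.23, with 67.2% of genes at or below it.

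Inside the gene both proteins occupied the same 2 blocks. When peaks at most 500 bp apart were joined, a Smad3 cluster of 7200 bp with 16 peaks ran from 6.6 to 13.8 kb downstream of the start, and a JMJD3 cluster of 6990 bp with 13 peaks from 6.5 to 13.5 kb. JMJD3 peaks covered 87.5% of the Smad3 cluster, and Smad3 peaks 92.8% of the JMJD3 cluster. The second block held a Smad3 cluster of 5051 bp from 16.8 to 21.9 kb, 72.8% covered by JMJD3, and a JMJD3 cluster of 3980 bp from 18.0 to 21.9 kb, 92.7% covered by Smad3. The left edge of this block was Smad3 alone, with regions of 181 and 421 bp before the JMJD3 cluster began. Smaller regions of both followed at 23.2 to 23.9 kb and at 25.5 to 26.3 kb.

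Other stretches of the gene had Smad3 regions and no JMJD3. Upstream of the first block, Smad3 regions of 631 and 550 bp lay from 4.1 to 5.5 kb, in the gap between 2 JMJD3 regions. Others lay at 15.0 kb (321 bp), at 24.6 kb (530 bp) and at 28.6 to 29.0 kb (231 and 180 bp). These regions were scattered and short beside the blocks that both proteins shared.

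**Figure D2:**
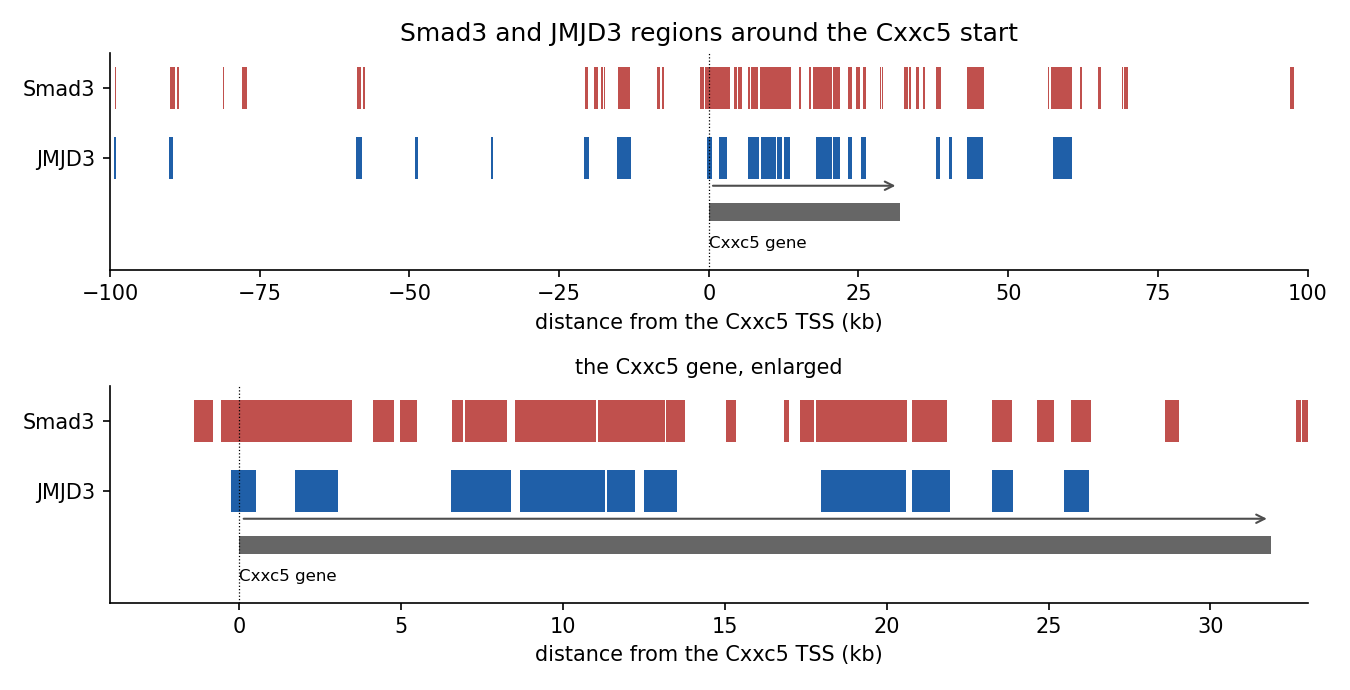
Smad3 (red) and JMJD3 (blue) regions by distance in kb from the Cxxc5 start (dotted line), over 100 kb each side (top) and over the gene (bottom); the grey bar is the gene and the arrow its direction. The Smad3 region at the start is 4051 bp wide and the JMJD3 region 780 bp, and in the blocks from 6.6 to 13.8 kb and from 18.0 to 21.9 kb both proteins lie together.

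Outside the gene, shared clusters alternated with Smad3 alone. Upstream, a cluster of 2040 bp of Smad3 and 2240 bp of JMJD3 lay from 15.2 to 13.2 kb before the start, with 98.7% of the Smad3 bases under JMJD3 peaks. Between it and the promoter region were 3 Smad3 regions of 410, 340 and 610 bp, and the JMJD3 list had a gap of 12.8 kb. Past the gene end came 5 Smad3 regions of 161 to 420 bp from 32.6 to 36.1 kb with no JMJD3, and then a pair shared by both at 38.0 kb, with widths of 730 bp (Smad3) and 780 bp (JMJD3).

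Past the gene end lay 2 more wide clusters of both proteins. One lay from 43.2 to 46.0 kb, with 2790 bp of Smad3 and 2751 bp of JMJD3, and 94.8% of its Smad3 bases were under JMJD3 peaks. The other lay from 56.6 to 60.6 kb, with a Smad3 cluster of 4050 bp and a JMJD3 cluster of 3140 bp. JMJD3 peaks covered 74.5% of this Smad3 cluster. Its first Smad3 region, of 290 bp from 56.6 to 56.9 kb, had no JMJD3. Both lie past the end of Cxxc5 and are named for it only because its start is the closest. The lists do not show which gene such a region acts on.

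Nearly all JMJD3 peaks of the Cxxc5 locus lay on Smad3 peaks. Of the 48 JMJD3 peaks at Cxxc5, 45 overlapped a Smad3 peak by at least 1 bp (93.8%, 95% exact Clopper-Pearson interval 82.8 to 98.7%, counting error only), where the share over all JMJD3 peaks was 81.4%. Of the 99 Smad3 peaks, 59 overlapped JMJD3 (59.6%, 49.3 to 69.3%), against 60.2% of all. Neighbouring peaks of 1 library share their source and are not independent, so the intervals are narrower than they should be. The Smad3 share was close to that of the whole list. Smad3 peaks covered 19.0% of this window, so an overlap of 1 bp is met more easily here than where Smad3 is sparse. Whether that accounts for the JMJD3 share was not tested.

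The 3 JMJD3 peaks without Smad3 were single regions of 430 to 550 bp. One lay 40.0 to 40.6 kb downstream, between shared clusters. The other two, of 460 and 430 bp, lay inside Ube2d2 at 49.0 and 36.4 kb before the Cxxc5 start. That stretch is a gap of 36.8 kb in the Smad3 list, the widest in the window.

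Joined into regions, Smad3 had 48 in the Cxxc5 locus, of which 18 (37.5%) met a JMJD3 region, against 55.0% of all Smad3 regions. JMJD3 had 21, of which 18 met Smad3 (85.7%, against 81.7% of all). The 18 shared Smad3 regions had a median width of 985.5 bp and reached 4051 bp, and the 30 others had a median of 330.5 bp and none was wider than 650 bp. Over all Smad3 regions the medians were 600 and 351 bp, so the difference in width had the same direction in the whole list. A region counts as shared when 1 bp meets the other list, which a wide region does more easily. How much of the difference in width comes from this rule was not tested.

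Cxxc4 had peaks at its start and far upstream, and none inside the gene beyond the first 0.7 kb. The Smad3 region at the start was 880 bp wide, from 290 bp upstream to 589 bp downstream, and the JMJD3 region 1080 bp, from 390 bp upstream to 689 bp downstream. Genes at least as wide made up 37.3% for Smad3 and 28.4% for JMJD3. A further pair lay just upstream, with 810 bp of Smad3 and 940 bp of JMJD3 from 1.6 kb before the start. From 0.6 kb to 62.6 kb past the start no Smad3 peak was listed, and from 0.7 to 62.5 kb no JMJD3 peak, so the rest of the gene was free of both.

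The peak that covers the Cxxc4 start in each list was credited to Mir1895. In the Smad3 list its width was 730 bp and its midpoint lay 224.5 bp from the Cxxc4 start and 211.5 bp from that of Mir1895. In the JMJD3 list it was 790 bp wide, at 294.5 bp and 141.5 bp. Both were joined to a peak that names Cxxc4 and lies before the start, so Cxxc4 kept its call at the promoter, and without joining its widest Smad3 and JMJD3 promoter peaks were 350 and 281 bp.

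More peaks lay about 4 kb upstream, where a later annotation puts the start of Cxxc4. The RefSeq promoter table of GRCm38.p6 places that start 4088 bp before the start of Mir1895, which is read on the opposite strand, and the deposited annotation 436 bp before it. The distances from Mir1895 to the starts of Tet2 and Tacr3, 696 and 588 kb away on either side, differed by 0 and 1 bp between the annotations, so the later start lies 3652 bp upstream of the one in the files. Over it lay a Smad3 region of 971 bp, from 4570 to 3600 bp before the deposited start, made of 4 peaks. A JMJD3 region of 561 bp lay from 4370 to 3810 bp before it and stopped short of the later start.

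Of the 250 bases printed above, Smad3 peaks covered 241 and JMJD3 peaks 93. Before the deposited start both covered 241 of 250. The printed stretch had 20 CG pairs, where the median of 32851 RefSeq promoter sequences of that length was 6 and 17.9% had at least 20, and 68.0% of its bases were G or C against a median of 52.4%. On both strands it held GGCGC at 1 place, 221 bases before the start, as did 32.0% of promoters. It held no CAGAC, the short Smad box, which 42.2% of promoters had, and no GTCTAGAC, its palindrome, found in 0.167%. TGANTCA, the AP-1 element, and CANNTG, the E-box, were not in it either, and were found in 6.75% and 66.2% of promoters.

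**Figure D3:**
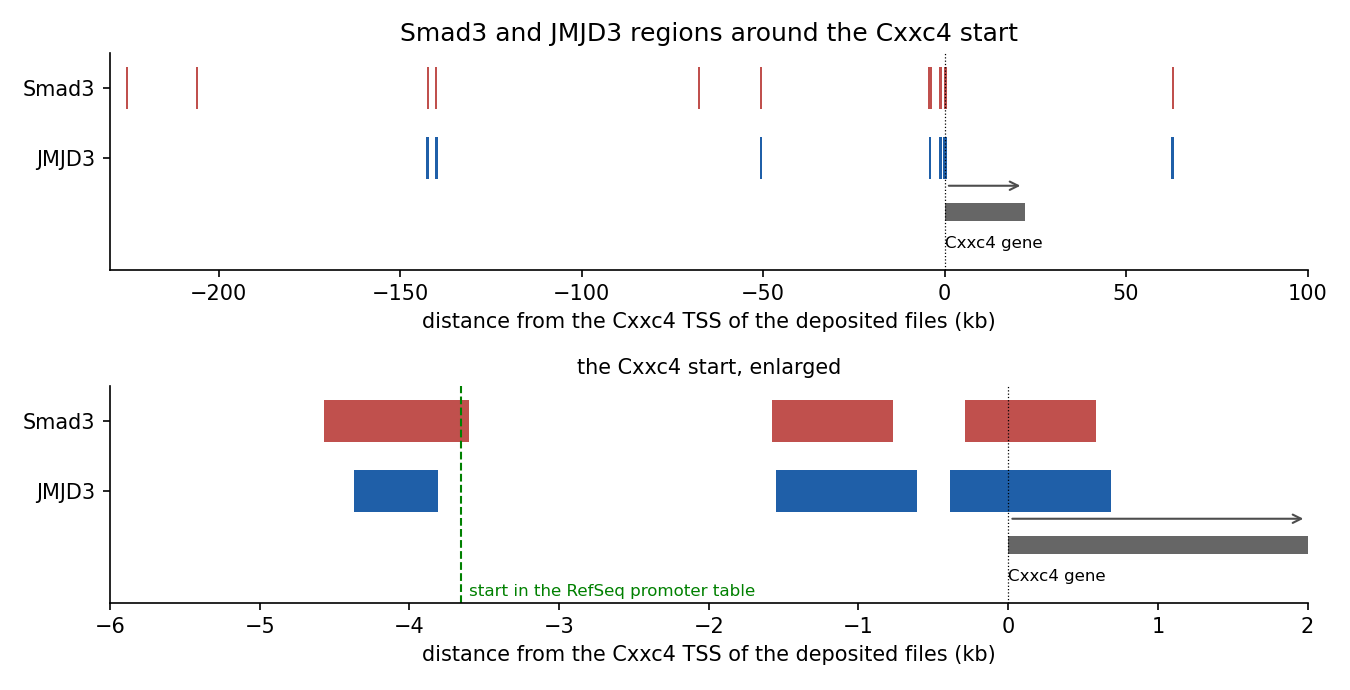
Smad3 (red) and JMJD3 (blue) regions by distance in kb from the Cxxc4 start of the deposited annotation (dotted line), over the whole locus (top, where regions narrower than 0.6 kb are drawn at that width) and around the start (bottom, to scale); the grey bar is the gene. The green dashed line marks the RefSeq start 3652 bp upstream, which lies in a Smad3 region of 971 bp.

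The distal peaks of Cxxc4 were few and mostly shared. Both proteins were listed at 50.9 kb upstream (Smad3 460 bp, JMJD3 710 bp), at 140.5 kb (491 and 730 bp) and at 142.5 kb (201 and 851 bp), and past the gene at 62.6 kb (521 and 510 bp). Smad3 alone was listed at 67.8, 206.2 and 225.4 kb upstream, with 300, 300 and 211 bp. Of 11 JMJD3 peaks at the locus 10 overlapped Smad3 (90.9%, 58.7 to 99.8%), and of 16 Smad3 peaks 12 overlapped JMJD3 (75.0%, 47.6 to 92.7%). The shares of the whole lists were 81.4% and 60.2%. The intervals hold counting error only, and neighbouring peaks of the same library are not independent. Joined into regions, the 16 Smad3 peaks gave 10 and the 11 JMJD3 peaks 7. The intervals are therefore narrower than they should be and cannot decide whether the locus differs from the whole lists.

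The edges of the windows fell in sparse stretches. At Cxxc5 the outermost members lay 99.2 kb upstream and 97.4 kb downstream, and the nearest peaks left out were 121.8 kb upstream and 106.7 kb downstream. At Cxxc4 the peaks from 139.8 kb upstream outwards are members by name only, and the 5 peaks that name Mir1895 from 129.2 kb downstream are not members.

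Of the 12 genes of the CXXC family that were looked up, 11 had a Smad3 peak within 1 kb of the TSS, 10 had JMJD3, and the 10 had both. Over 20953 coding genes 55.0% had Smad3, 43.3% JMJD3 and 41.9% both. All 12 are named in the files, and over the genes named there the shares were 73.1% for Smad3 and 57.1% for JMJD3. The list was chosen with results of these data known, and it includes the 2 members. Without them 9 of 10 genes had Smad3 and 8 had JMJD3. Kmt2a, a histone H3 lysine 4 methyltransferase gene listed as Mll1, had a Smad3 region of 1940 bp with a JMJD3 region of 1210 bp. Fbxl19, an F-box gene, had 1370 and 1390 bp, Tet3, a methylcytosine dioxygenase gene, 1260 and 901 bp, and Dnmt1, the maintenance DNA methyltransferase gene, 1001 and 1130 bp. Cxxc5 had the widest Smad3 region of the list, while only Cxxc1 and Kmt2b had a narrower JMJD3 region than its 780 bp.

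The histone H3 lysine 36 demethylase genes Kdm2b and Kdm2a had Smad3 widths of 990 and 630 bp, beside 1070 and 820 bp of JMJD3. Cxxc1, a subunit gene of the Set1 methyltransferase complexes, had 950 and 760 bp, and Kmt2b, listed as Wbp7, 591 and 770 bp. Mbd1, a methyl-CpG binding protein gene, had Smad3 only (570 bp), and Tet1 had neither. The nearest peaks naming Tet1 lay at -6954 bp (Smad3, upstream) and 14546 bp (JMJD3, downstream). Apart from Cxxc5, with 85, no gene of the list was named by more than 22 Smad3 peaks (Kdm2b). Tet2, the neighbour of Cxxc4, had 1441 and 1180 bp and was named by 16 Smad3 and 7 JMJD3 peaks.

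**Figure D4:**
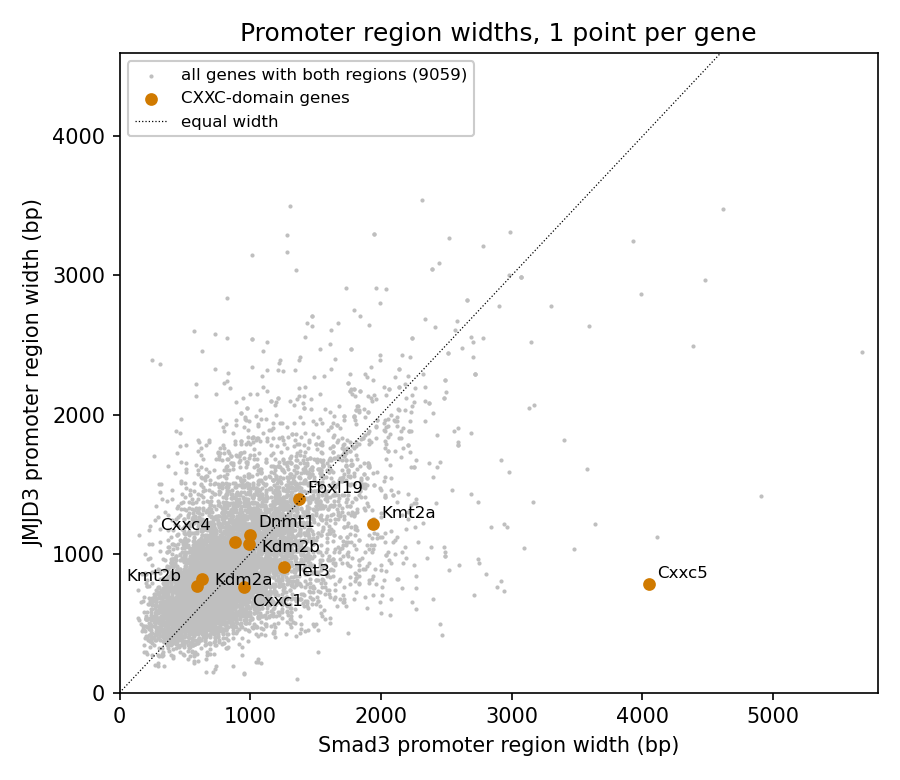
Width in bp of the JMJD3 promoter region (vertical) against that of the Smad3 promoter region (horizontal), 1 point per gene, for 9059 genes with both (grey) and 10 CXXC-domain genes (orange); the dotted line marks equal width. Cxxc5, at 4051 and 780 bp, lies far to the right below the line, and Cxxc4, at 880 and 1080 bp, lies among the bulk of genes.

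Of 30 genes for Dishevelled and inhibitors of the Wnt pathway, 23 (76.7%) had a Smad3 promoter peak and 20 (66.7%) JMJD3, and the 20 had both. The shares were 55.0% and 43.3% over all coding genes, the background that matches a count out of 30. Only 26 of the 30 are named in the files, and of these 23 had Smad3 and 20 JMJD3. Over all genes named in the files the shares were 73.1% and 57.1%. The Dishevelled genes, whose products Cxxc5 and Cxxc4 bind, had both, at 541 and 1041 bp for Dvl1, 830 and 1010 bp for Dvl2 and 710 and 920 bp for Dvl3. Gsk3a and Gsk3b, kinase genes of the beta-catenin destruction complex, had the widest Smad3 regions of the list, 2271 and 1631 bp, with 1391 and 1731 bp of JMJD3. Csnk1a1, another kinase gene of that complex, had 660 and 810 bp. Axin2, a feedback inhibitor of the pathway, had 1331 and 1230 bp, and Nkd1, which also binds Dishevelled, 391 and 851 bp. Its relative Nkd2 had Smad3 only (470 bp).

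The secreted inhibitors were mixed. Wif1 had 1000 and 1140 bp, Sfrp2 610 and 460 bp, and Notum, a Wnt deacylase gene, 691 and 590 bp. Sfrp1 and Frzb had Smad3 only, of 311 and 251 bp. Dkk1, Dkk4 and Sfrp5 were named by no peak. Dkk2 and Dkk3 had no peak within 1 kb of the TSS, and their nearest Smad3 peaks lay 1877 and 1230 bp downstream. Dkk3 was named by 15 Smad3 and 15 JMJD3 peaks, with the nearest JMJD3 peak 3660 bp downstream. None of the 30 was named by more than 25 peaks of either list.

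The genes whose pattern was most like that of each member were found by the distance between 4 percentiles, the widths of both promoter regions and the numbers of Smad3 and JMJD3 peaks naming the gene, over 16428 genes in 2 libraries. For Cxxc5 these included Actg1, Litaf, Ncam1 and Fzd1, at distances of 3.3 to 6.53 percentile points. Ncam1, a neural cell adhesion gene, had regions of 2800 and 850 bp and 79 and 45 peaks. Actg1, a cytoplasmic actin gene, had 2890 and 760 bp with 35 and 18 peaks, fewer than Cxxc5. Percentiles compress the top of the scale, and none of these 4 genes reached the Smad3 width of Cxxc5 or its 85 Smad3 peaks. For Cxxc4 they were Relt, Ppcdc, Zfp213, Ptp4a2 and Zcchc2, at 3.35 to 4.17 points, with Smad3 regions of 830 to 931 bp.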

How the data were processed

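Peak lists of 1 Smad3 and 1 JMJD3 library were used; no input list entered the work. The build mm9 and the tools MACS 1.4, Bowtie 0.12.7 and CASAVA come from the submitters' processing notes. How each was run, with what thresholds and with what use of the input, is not given in the sources used here. Each deposited file of the authors holds positions in bp and the signed distance from the closest TSS to each peak's midpoint, with no count, height or score, so depth and its precision are unknown. Members and gene lists were chosen with earlier results of these data known.

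Peaks of 1 list at most 10 bp apart were joined into regions (clusters, 500 bp). Promoter binding required a peak naming the gene within 1 kb of its TSS, and the widest region with such a peak gave the width. Overlap meant at least 1 bp. Numbers around a TSS were compared with 17765 TSS named in the files, all of them closest to some peak, and promoter binding with 20953 coding genes of a RefSeq table (GRCm38.p6), matched on Entrez ID for 99.4% of 16428 named genes. Promoter sequences came from RefSeq (GRCm38.p6), with an entry for Cxxc4. No p-value was computed, since each antibody has 1 library. The functions were tested on simulated peaks. Genes named were the members, genes named by member peaks, the fixed lists and the 5 most like each member, of which 1 is not reported here. Tacr3, named to anchor a start site, was chosen after the data were seen. Alternatives covered windows, joining, overlap and the gene background. Python 3.11.15, pandas 2.3.3 and scipy 1.17.1 were used.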

Additional observations from a re-analysis of the deposited data

How the results depend on the processing

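Of 66 alternative values for 18 results, 40 stayed close to the reported one (within 1.5 times for counts, within the counting interval for shares, equal for widths). Joining peaks into regions left 48 Smad3 and 21 JMJD3 at Cxxc5 and 10 and 7 at Cxxc4, and the wider 50% of peaks left 48 and 28, and 5 and 4. By the 100 kb window alone Cxxc4 had 7 JMJD3 peaks. Without joining, promoter widths of Smad3 were 511 bp at Cxxc5 and 350 bp at Cxxc4, and that of JMJD3 at Cxxc4 281 bp. Joined at 500 bp, they were 4891, 2170 and 2240 bp. TSS windows of 2.5 and 5 kb gave 1350 bp for JMJD3 at Cxxc5, and 5 kb gave 971 bp for Smad3 at Cxxc4; these windows take in further regions. A reciprocal overlap of 50% lowered the Smad3 shares to 34.3% and 43.8% and the JMJD3 share at Cxxc5 to 70.8%, where all peaks gave 37.4% and 58.2%. Midpoints within 200 bp gave 45.5% for Smad3 at Cxxc5 (all peaks 47.7%). By regions the share was 37.5% for Smad3 at Cxxc5 and 100% for JMJD3 at Cxxc4. With genes named in the files as background, 73.1% had Smad3 and 57.1% JMJD3. No paired analysis was possible because each antibody has 1 library. Without read numbers, weak and strong peaks cannot be told apart, and whether width follows strength was not tested.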
